A study of Harpegnathos saltator with 35 samples.

Results

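Dscam2 (LOC105186232) and stan (LOC105180754) are a pair of neuronal adhesion genes of the ant Harpegnathos saltator, described here in 35 primary neuronal cultures exposed to 20-hydroxyecdysone (20E, the ecdysteroid that drives moulting) or JH3, juvenile hormone III, a sesquiterpenoid hormone. They are 2 of the 14001 genes in the expression table, and they were picked because both were known to be higher in the 20E baseline than in the JH3 baseline, so the values of that contrast are given as a description only. Both passed the filter on low values that left 9873 genes for testing. The recovered gene lengths were 11739 bases for Dscam2, with 782 to 16143 reads in a library, and 12268 bases for stan, with 688 to 20306 reads.

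Polyadenylated RNA was sequenced from cells dissociated from central brains and kept for 5 days in medium with 2 µM 20E or 2 µM JH3. The medium of all groups held progesterone, B27 and, until the fourth day, honeybee pupal extract. Five-day cultures in 20E were then given 2 µM JH3 for 30 min (n = 3), 6 h (n = 5) or 24 h (n = 3), and cultures in JH3 were given 2 µM 20E for 30 min (n = 5), 6 h (n = 6) or 24 h (n = 4). The baselines, 20E cultures (n = 5) and JH3 cultures (n = 4), got the solvent DMSO for 30 min, so there was no DMSO control at 6 h or 24 h and a change with time cannot be told apart from a longer time since the change of medium. The design text calls the replicates independent cultures, and the labels do not give the age or caste of the donors. Libraries held 5938007 to 22650435 reads and came from 3 sequencing runs, called A, B and C after the run code in each label. All 13 neuron markers matched were above 0 in every group, with nSyb at a median of 117 FPKM over the libraries, but the glial marker repo was also present at a median of 13.5 FPKM, so glial RNA was present too. JH3 baseline replicate 4 and replicate 5 at 30 min of 20E were known from earlier results of these data to stand apart from their groups. Without both, each call on Dscam2 and stan below held and 1 was gained, named where it falls.

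Dscam proteins are homophilic cell surface receptors of the immunoglobulin superfamily. In Drosophila, Dscam2 lets processes of like neurons recognise and repel each other, so that neighbouring cells tile the visual system. The gene stan (starry night, also called flamingo) encodes an atypical cadherin of the planar cell polarity pathway, and in Drosophila it acts in dendrite growth and in the choice of axon targets. 20E acts through the ecdysone receptor, a nuclear receptor that switches on early genes such as E75, whereas juvenile hormone acts through its own receptor and induces Kr-h1. Workers of Harpegnathos can turn into reproductive gamergates, a change that involves both hormones.

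Levels below are FPKM (fragments scaled to gene length and to library size by median-ratio factors), and fold changes are differences of log2(FPKM + 1) from one limma fit over all libraries, with group and run as terms and the standard error (SE) beside them. A gene was called at a Benjamini-Hochberg adjusted p under 0.05 over the 9873 genes.

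At baseline Dscam2 stood at 52.4, 52.2, 31.3, 122 and 68.5 FPKM in the 20E cultures and at 7.58, 13.04, 6.27 and 10.2 FPKM in the JH3 cultures. All 5 libraries of the 20E baseline were above all 4 of the JH3 baseline, and the ratio of the means was 7.03. In stan the 20E baseline held 60.8, 51.1, 37.7, 86.9 and 60.9 FPKM and the JH3 baseline 7.18, 22.3, 8.99 and 41.5 FPKM, a ratio of means of 2.97. The stan ranges overlapped through JH3 baseline replicate 4, the library at 41.5 FPKM, whose Dscam2 level of 10.2 FPKM lay among the other JH3 baselines. This contrast chose the genes, and 21.1% of all tested genes were called in it. Since these are bulk cultures, fewer cells of a type and less RNA per cell cannot be told apart here or in any result below.

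**Figure D1:**
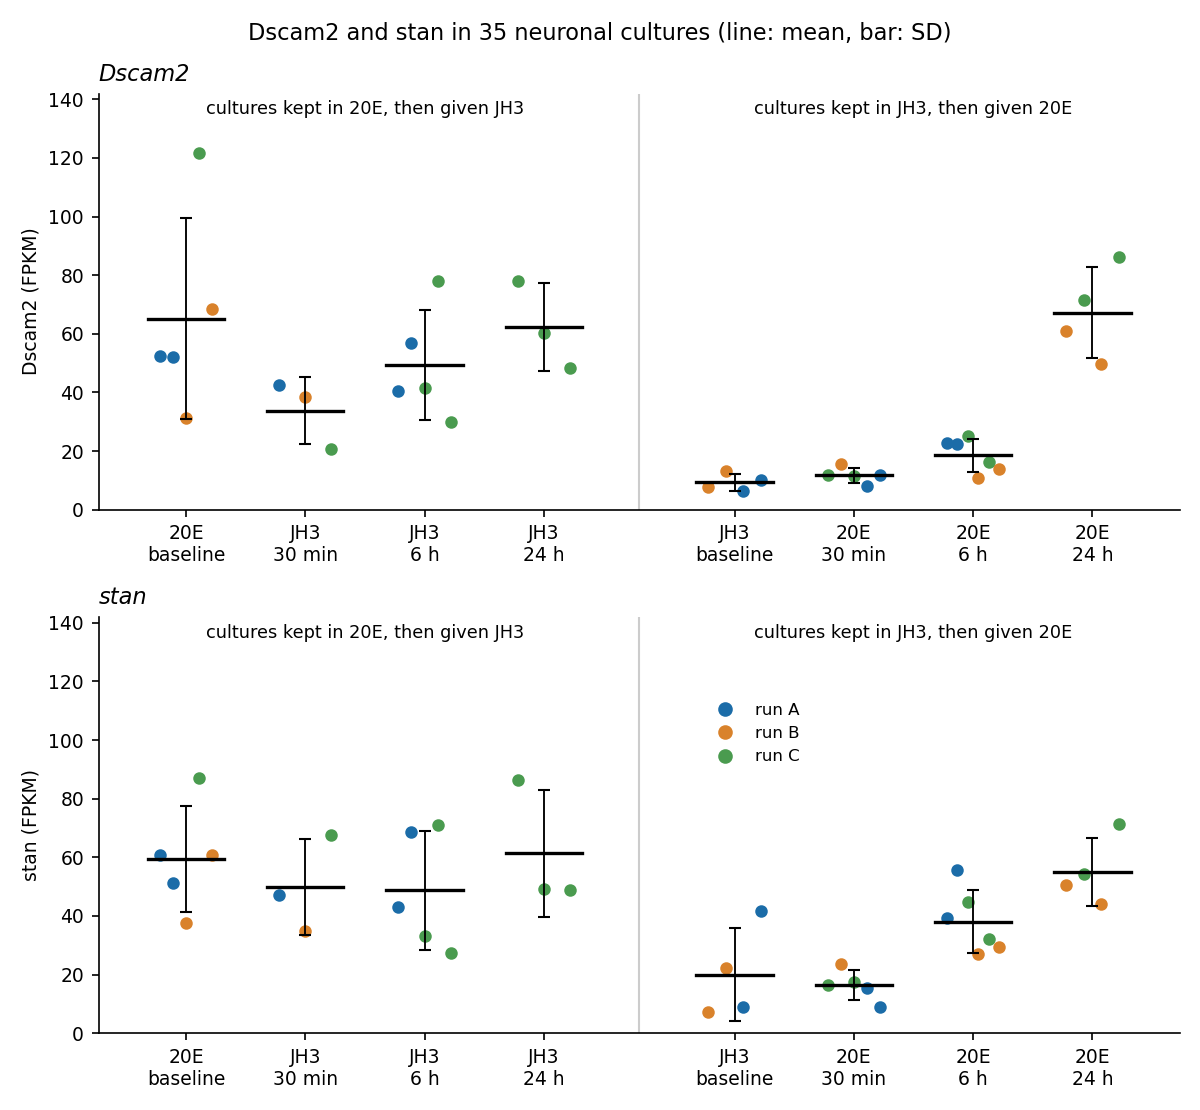
FPKM of Dscam2 (upper panel) and stan (lower panel) in each of 35 cultures, grouped by culture hormone and time after the change of hormone, with points coloured by sequencing run, lines for group means and bars for the SD. The JH3 cultures given 20E sit at 49.8 FPKM or more for Dscam2 at 24 h, above the highest of their 6 h libraries at 25.0 FPKM.

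At 30 min after the change of hormone both genes were higher in cultures that had been kept in 20E. Dscam2 held 42.5, 38.3 and 20.7 FPKM in 20E cultures given JH3 for 30 min, against 11.7, 15.4, 11.4, 8.24 and 11.955 FPKM in JH3 cultures given 20E for 30 min. All 3 libraries of the first group were above all 5 of the second, with a log2 fold change of 1.44 (SE 0.33, limma adjusted p = 0.00253). For stan the 20E cultures given JH3 held 47.3, 34.9 and 67.5 FPKM and the JH3 cultures given 20E 16.4, 23.5, 17.4, 15.3 and 9.03 FPKM. These too did not overlap, with a log2 fold change of 1.61 (SE 0.39, limma adjusted p = 0.00367). Of all genes tested, 19.7% were called in this comparison. Neither baseline entered it, but the cultures share their history with the baselines that chose the genes. Within run A, where 1 library stood against 2 and the lone library is assumed to vary like the other groups of that run, the log2 fold changes were 1.99 for Dscam2 (limma adjusted p = 0.0412) and 1.92 for stan (0.414). Within runs B and C they were 1.15 for Dscam2 (limma adjusted p = 0.0978) and 1.39 for stan (0.0348).

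At 6 h Dscam2 was called between the cultures and stan was not. Dscam2 stood at 40.4, 57.0, 41.5, 77.9 and 30.0 FPKM in 20E cultures given JH3 for 6 h, while the JH3 cultures given 20E for 6 h ran from 10.8 through a median of 19.5 to 25.0 FPKM. All 5 libraries of the 20E cultures were above all 6 of the JH3 cultures (log2 fold change 1.26, SE 0.28, limma adjusted p = 0.00178). In this comparison 19.5% of all genes were called. For stan, 20E cultures given JH3 held 43.1, 68.6, 33.3, 71.2 and 27.3 FPKM, against a lowest value of 26.9, a median of 35.8 and a highest of 55.7 FPKM in JH3 cultures given 20E. The stan ranges overlapped widely, and the log2 fold change of 0.17 (SE 0.33, limma adjusted p = 0.772) was well below its error. For Dscam2 the value was 1.051 within run A (limma adjusted p = 0.127) and 1.30 within runs B and C (0.0363).

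At 24 h neither gene was called between the cultures. Dscam2 held 78.1, 60.3 and 48.2 FPKM in 20E cultures given JH3 for 24 h and 61.0, 71.6, 49.8 and 86.3 FPKM in JH3 cultures given 20E for 24 h. For stan the 20E cultures given JH3 held 86.3, 49.1 and 48.7 FPKM and the JH3 cultures given 20E 50.6, 54.2, 44.2 and 71.4 FPKM. Both pairs of groups overlapped, with log2 fold changes of -0.25 (SE 0.36, limma adjusted p = 0.781) for Dscam2 and -0.07 (SE 0.42, 0.958) for stan, where 4.61% of all genes were called. A missed threshold does not show that the levels were equal.

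In JH3 cultures given 20E both genes rose with time. Between 30 min and 24 h of 20E, Dscam2 rose to a mean of 67.2 ± 15.5 FPKM (SD, n = 4), against 11.7 ± 2.56 FPKM at 30 min (SD, n = 5). All 4 libraries at 24 h were above all 5 at 30 min, and the log2 fold change of 2.45 (SE 0.31, limma adjusted p = 3.74e-06) ranked 6 from the top among 9873 genes. Over the same interval stan rose to 55.1 ± 11.6 FPKM, against 16.3 ± 5.16 FPKM at 30 min, again with no overlap. Its log2 fold change was 1.82 (SE 0.36, limma adjusted p = 0.00141), rank 14 from the top. In this comparison 5.82% of all genes were called, and 3.12% of all genes were called as higher at 24 h. Within runs B and C, the only runs with both times, the values were 2.34 for Dscam2 (limma adjusted p = 7.71e-04) and 1.54 for stan (0.0162).

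The steps between the times were compared after the values had been seen, and of these only the one from 6 h to 24 h of 20E gave a call, for Dscam2. Whether the genes differ in a step was not tested in this fit. Between 6 h and 30 min of 20E, stan held more in all 6 libraries at 6 h than in any of the 5 at 30 min, with a log2 fold change of 1.23 (SE 0.32) that did not pass (limma adjusted p = 0.0916, with 0.547% of all genes called). Without replicate 2 at 30 min of 20E, the highest of its group, the adjusted p for stan was 0.0263 (limma). Dscam2 had 0.62 (SE 0.28, limma adjusted p = 0.841) over that step, with overlapping libraries. From 6 h to 24 h of 20E Dscam2 rose, with a log2 fold change of 1.83 (SE 0.30, limma adjusted p = 4.46e-04) and all 4 libraries at 24 h above all 6 at 6 h. There stan had 0.59 (SE 0.35, limma adjusted p = 0.427) with overlap, and 2.81% of all genes were called.

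In the opposite change neither gene was called at any step. Between 30 min and 24 h of JH3, Dscam2 stood at 62.2 ± 15.01 FPKM at 24 h and 33.8 ± 11.6 FPKM at 30 min (SD, n = 3 each). The 3 libraries at 24 h, all from run C, were above the 3 at 30 min, 1 from each run, and the log2 fold change was 0.76 (SE 0.39, limma adjusted p = 0.366, with 1.74% of all genes called). That count of 172 genes ran from 42 to 387 when 1 library was left out. Without replicate 3 at 30 min of JH3, the lowest at 20.7 FPKM, it was 0.25, and that library is also the only one from run C in its group. For stan the means were 61.3 ± 21.6 FPKM at 24 h and 49.9 ± 16.4 FPKM at 30 min, with overlap and a log2 fold change of 0.15 (SE 0.45, limma adjusted p = 0.913). The steps from 30 min to 6 h and from 6 h to 24 h of JH3 gave log2 fold changes of 0.43 and 0.33 for Dscam2 and -0.21 and 0.35 for stan, with limma adjusted p between 0.719 and 0.998, where 0.0912% and 0.0203% of all genes were called.

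The difference between the changes of hormone was itself tested, as the 24 h minus 30 min difference under 20E less that under JH3. It was 1.69 for Dscam2 (SE 0.50, limma adjusted p = 0.0508) and 1.68 for stan (SE 0.58, limma adjusted p = 0.111), so neither passed, while 3.92% of all genes did. Leaving out single libraries took it past the threshold for Dscam2 without replicate 2 at 30 min of 20E (limma adjusted p = 0.0306), replicate 1 at 24 h of JH3 (0.043) or replicate 3 at 30 min of JH3 (0.0148). For stan leaving out replicate 2 at 30 min of 20E gave 0.0476 (limma).

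**Figure D2:**
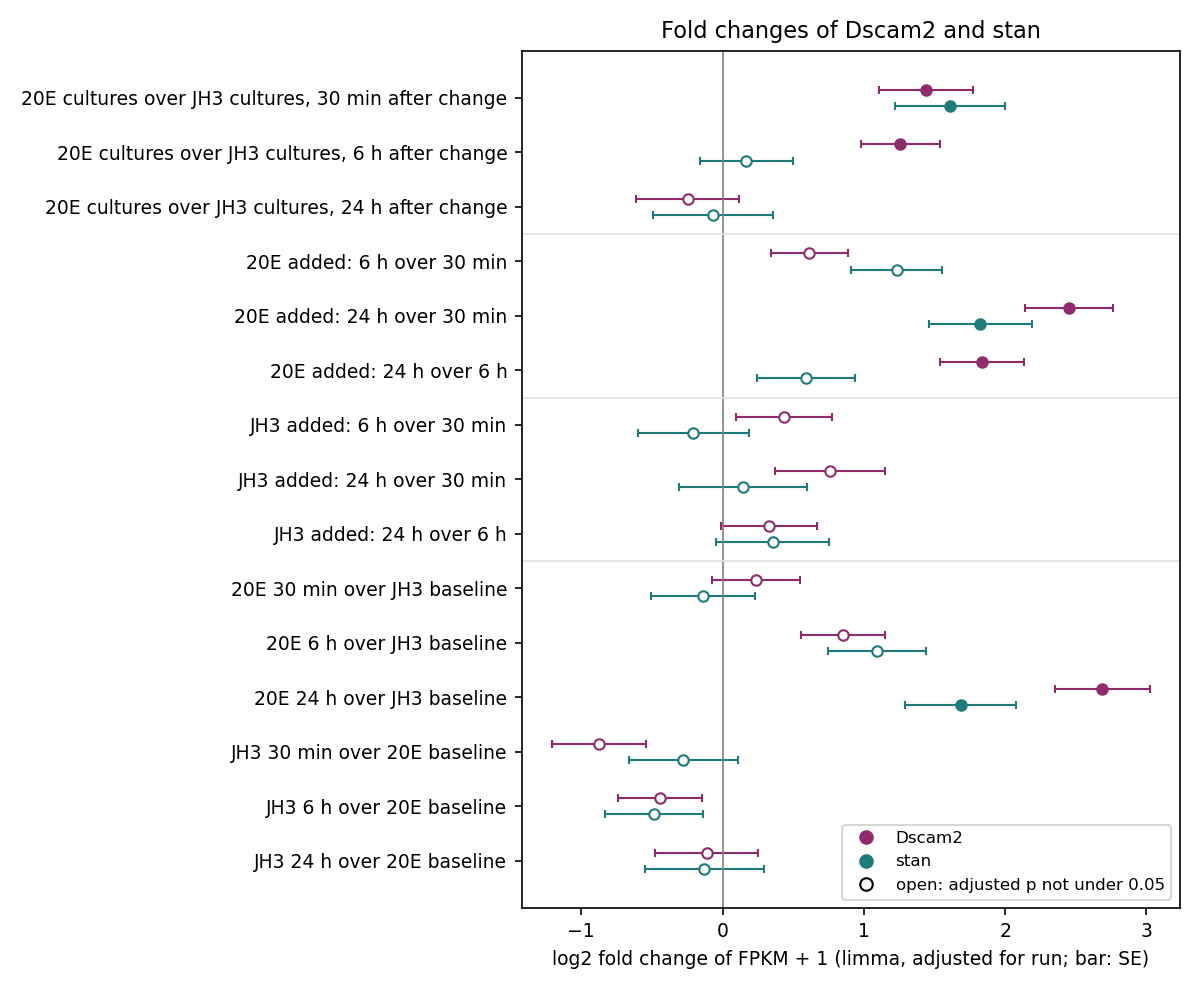
Log2 fold changes of FPKM + 1 for Dscam2 and stan in 15 comparisons, from limma with run as a term, with bars for the SE and filled points where the adjusted p was under 0.05. The baseline libraries chose the genes, and the p-values against a baseline do not allow for that. Dscam2 is filled for the cultures at 30 min and 6 h, for 24 h of 20E over 30 min and over 6 h, and for 24 h of 20E over the JH3 baseline; stan is filled for the cultures at 30 min and for 24 h of 20E over 30 min and over the JH3 baseline.

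Each change of hormone was also set against its own baseline, whose libraries chose the genes and are shared by the 3 times. That choice favours a low JH3 baseline and a high 20E baseline. The limma p-values against a baseline do not allow for it, so they describe these values and are no independent test. In JH3 cultures 30 min of 20E gave log2 fold changes of 0.24 (SE 0.31) for Dscam2 and -0.14 (SE 0.37) for stan, limma adjusted p = 0.999 for both. No gene at all was called by limma in that comparison (0% of all genes, 168 at an unadjusted p under 0.05). At 6 h of 20E the values were 0.85 (SE 0.30, limma adjusted p = 0.520) for Dscam2 and 1.09 (SE 0.35, 0.339) for stan, with 0.506% of all genes called. Without JH3 baseline replicate 4 the value for stan was 1.52 (limma adjusted p = 0.0273). At 24 h of 20E both had risen, by 2.69 (SE 0.34, limma adjusted p = 3.01e-06) for Dscam2 and 1.69 (SE 0.39, 0.00726) for stan, and no library at 24 h overlapped the baseline in either gene. Of all genes 5.22% were called at 24 h, and the stan call was lost without JH3 baseline replicate 1 (limma adjusted p = 0.0666). The JH3 baseline came from runs A and B and the 24 h group from runs B and C, and within runs B and C the values were 2.42 for Dscam2 (limma adjusted p = 0.00322) and 1.80 for stan (0.0228).

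In 20E cultures no time of JH3 gave a call for either gene. Dscam2 had log2 fold changes against the 20E baseline of -0.88 at 30 min (SE 0.33, limma adjusted p = 0.402), -0.44 at 6 h (SE 0.30, 0.535) and -0.11 at 24 h (SE 0.36, 0.946). The value at 30 min had an unadjusted p of 0.0134 (limma), and 1008 of all genes were under 0.05 there with none called (0%). Without replicate 1 at 30 min of JH3 129 genes were called, and neither Dscam2 (limma adjusted p = 0.151) nor stan (0.839) was among them. For stan the values were -0.28 at 30 min (SE 0.39, limma adjusted p = 0.771), -0.48 at 6 h (SE 0.35, 0.554) and -0.13 at 24 h (SE 0.42, 0.947). At 6 h and 24 h 0.0506% and 0.243% of all genes were called.

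Set against the level that the other hormone had given at baseline, the groups at 24 h read as follows, as values with no test. After 24 h of JH3 the 20E cultures held 6.71 times the mean Dscam2 level of the JH3 baseline and 3.07 times its stan level. Those 24 h libraries all came from run C, and the JH3 baseline came from runs A and B. Culture and run cannot be told apart in these ratios. After 24 h of 20E the JH3 cultures held 1.03 times the mean Dscam2 level of the 20E baseline and 0.926 times its stan level, with overlapping libraries in both genes. E75, the early ecdysone gene, averaged 46.9, 488 and 517 FPKM at 30 min, 6 h and 24 h of 20E, with the high level already there at 6 h. Kr-h1, the juvenile hormone response gene, averaged 6.99, 60.5 and 61.3 FPKM at the same times of JH3.

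Over all 8 groups, Dscam2 was highest in JH3 cultures given 20E for 24 h (67.2 ± 15.5 FPKM), followed by the 20E baseline (65.2 ± 34.2) and 20E cultures given JH3 for 24 h (62.2 ± 15.01), 6 h (49.3 ± 18.6) and 30 min (33.8 ± 11.6). The JH3 cultures given 20E for 6 h (18.6 ± 5.68) and 30 min (11.7 ± 2.56) and the JH3 baseline (9.27 ± 3.00) were lowest. The order for stan began with 20E cultures given JH3 for 24 h (61.3 ± 21.6 FPKM), the 20E baseline (59.5 ± 18.04) and JH3 cultures given 20E for 24 h (55.1 ± 11.6). It went on with 20E cultures given JH3 for 30 min (49.9 ± 16.4) and 6 h (48.7 ± 20.2) and JH3 cultures given 20E for 6 h (38.1 ± 10.9), and ended with the JH3 baseline (20.0 ± 15.9) and 30 min of 20E (16.3 ± 5.16). In both genes the libraries of all neighbouring groups in this order overlapped.

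The level of Dscam2 relative to stan, as the difference of their log2(FPKM + 1), set the cultures apart at 6 h. It averaged 0.04 ± 0.22 in 20E cultures given JH3 for 6 h (SD, n = 5) and -1.01 ± 0.21 in JH3 cultures given 20E for 6 h (SD, n = 6). No library overlapped, and the difference of 1.051 had p = 0.00216 in an exact two-sided permutation test, the smallest that its 462 arrangements can give, and 0.00649 after adjustment over the 3 times. Unlike the limma fit, the permutation tests of this ratio have no term for run. At 6 h the 20E cultures came from runs A and C and the JH3 cultures from runs A, B and C. At 30 min the means were -0.56 ± 0.96 (n = 3) and -0.41 ± 0.46 (n = 5), with an exact permutation p of 0.786. The wide SD of the first group came from replicate 3 at 30 min of JH3, with 20.7 FPKM of Dscam2 beside 67.5 FPKM of stan, and without it the difference was 0.40 in place of -0.15. At 24 h they were 0.05 ± 0.22 (n = 3) and 0.28 ± 0.09 (n = 4), with an exact permutation p of 0.2 (0.3 adjusted). At baseline the difference was 0.04 ± 0.30 in 20E (n = 5) and -0.76 ± 0.84 in JH3 (n = 4).

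**Figure D3:**
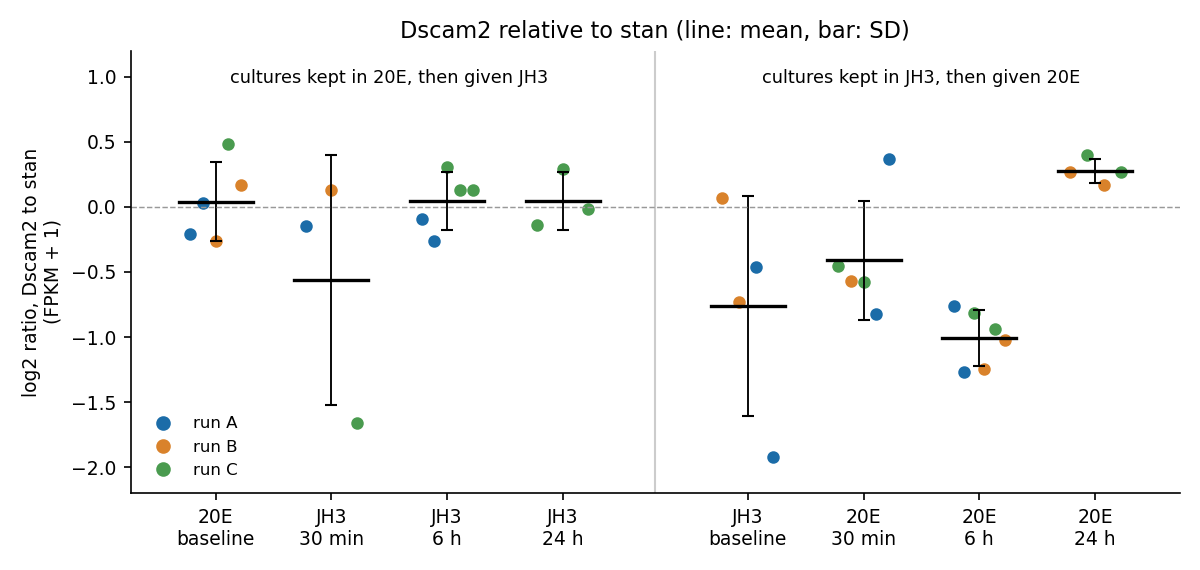
Log2 ratio of Dscam2 to stan (each as FPKM + 1) in each of 35 cultures, by group, with points coloured by sequencing run, lines for means and bars for the SD. At 6 h the JH3 cultures given 20E average -1.01 and the 20E cultures given JH3 0.04, while at 24 h both groups lie near or above 0.

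Of the other Dscam genes, Dscam3 was called from 30 min to 24 h of 20E and Dscam1 was not. The difference between them was not tested. Dscam3 (LOC105183737), a further member of the Dscam family, stood at 24.7 ± 4.65 FPKM after 24 h of 20E (SD, n = 4) and at 10.4 ± 2.73 FPKM after 30 min (SD, n = 5). It rose by a log2 fold change of 1.30 (SE 0.28, limma adjusted p = 0.00301), which was 1.15 within runs B and C (0.0576). Dscam1 (LOC105183000), which in Drosophila is spliced into a vast number of isoforms that let a neuron recognise its own branches, had group means between 34.3 and 55.1 FPKM. Its log2 fold change over that interval was 0.10 (SE 0.21, limma adjusted p = 0.904), with the sign turned when the gene length trend was a covariate (-0.03) or only the compared groups were fitted (-0.03). Between the cultures at 30 min neither passed, with 0.46 for Dscam3 (SE 0.30, limma adjusted p = 0.296) and 0.07 for Dscam1 (SE 0.23, 0.852). Once the length trend was a covariate they were 0.80 (limma adjusted p = 1.44e-04) and 0.33 (0.0264). The values are sums over all isoforms of a gene, so a change of splicing would not show.

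**Figure D4:**
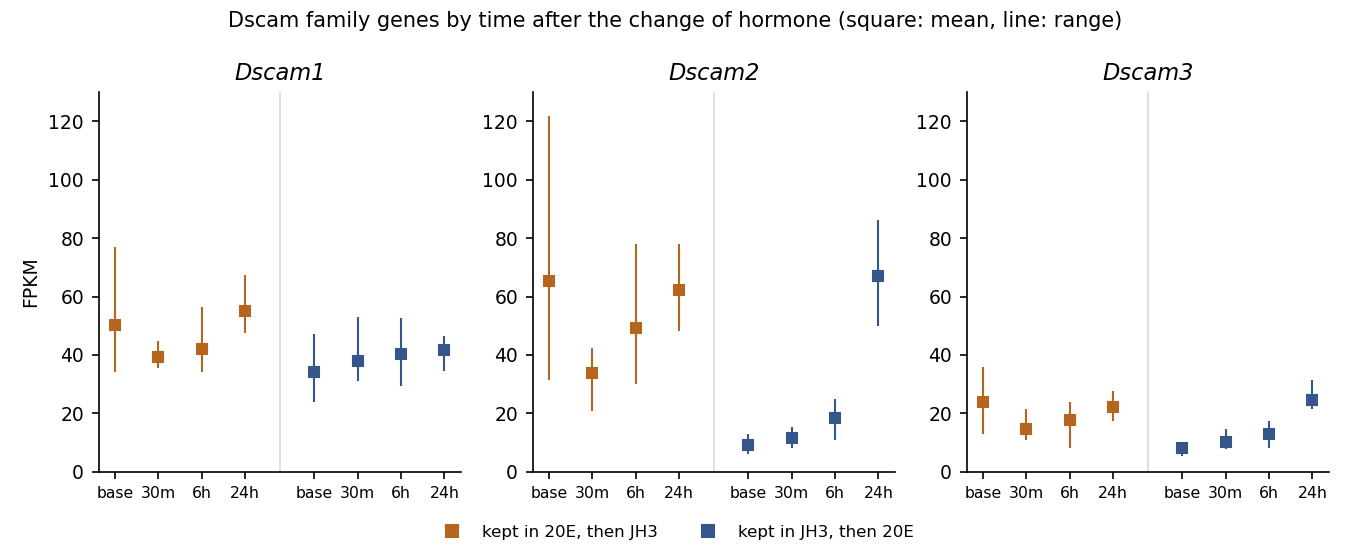
FPKM of Dscam1, Dscam2 and Dscam3 by time after the change of hormone, with squares for group means and lines from the lowest to the highest library, for cultures kept in 20E and then given JH3 and cultures kept in JH3 and then given 20E. Dscam2 and Dscam3 have higher means at 24 h of 20E (67.2 and 24.7 FPKM) than at 30 min (11.7 and 10.4 FPKM), while Dscam1 means stay between 34.3 and 55.1 FPKM in all groups.

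Among 45 tested genes of a list of cell adhesion molecules, which includes both genes and Dscam3, 8 rose and 0 fell from 30 min to 24 h of 20E, where 5.82% of all genes were called and 3.12% as higher. The list's median log2 fold change was 0.13, beside -0.01 over all genes. Nrt, neurotactin, an adhesion protein that in Drosophila guides axons, rose by 1.80 (SE 0.26, limma adjusted p = 1.90e-05), and ed, echinoid, an immunoglobulin-domain adhesion protein, by 1.08 (SE 0.21, 8.58e-04). Over the same time of JH3, 0 of 45 were called by limma in either direction, beside 1.74% of all genes. Between the cultures at 30 min 6 of the 45 were higher and 6 lower in 20E cultures given JH3, beside 19.7% of all genes called. There ed had 1.44 (SE 0.22, limma adjusted p = 2.36e-05) and Lac, lachesin, 1.07 (SE 0.21, 5.30e-04), while the protocadherin gene Cad99C had -1.21 (SE 0.26, 0.00148). At 6 h 4 were higher and 6 lower, beside 19.5% of all genes called, and at 24 h 0 were higher and 3 lower, beside 4.61%.

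Of 16 tested genes of planar cell polarity, the pathway of stan, 2 rose and 1 fell from 30 min to 24 h of 20E, beside 5.82% of all genes called, and the median log2 fold change was 0.09, beside -0.01 over all genes. Beside stan, mwh, which in Drosophila restricts actin-based hairs downstream of the pathway, rose by 0.76 (SE 0.20, limma adjusted p = 0.0192), and fz2, a Wnt receptor gene, fell by 0.78 (SE 0.21, 0.0213). Both calls were lost without replicate 2 at 24 h of 20E (limma adjusted p = 0.101 and 0.119), mwh also without replicate 4 there (0.0874) or replicate 5 at 30 min (0.0533), and fz2 without replicate 2 at 30 min (0.0513). Between the cultures at 30 min 4 polarity genes were higher and 2 lower in 20E cultures given JH3, beside 19.7% of all genes called. Among them were zip, the non-muscle myosin heavy chain gene, at 0.79 (SE 0.16, limma adjusted p = 5.91e-04), mwh at 0.94 (SE 0.21, 0.00226) and fz2 at -0.84 (SE 0.22, 0.00846). That fz2 call was lost without replicate 3 at 30 min of JH3 (limma adjusted p = 0.0564).

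Of 14 axon guidance genes, 3 rose and 1 fell from 30 min to 24 h of 20E, beside 5.82% of all genes called. The secreted repellent gene sli, slit, averaged 25.9 ± 3.39 FPKM at 24 h (SD, n = 4) and 6.43 ± 1.52 FPKM at 30 min (SD, n = 5), a rise of 1.89 (SE 0.21, limma adjusted p = 2.73e-07). Its level at 6 h, 6.64 ± 1.41 FPKM (SD, n = 6), was near that at 30 min, and from 6 h to 24 h of 20E it rose by 1.83 (SE 0.20, limma adjusted p = 7.41e-07). The semaphorin gene Sema1a rose by 0.87 (SE 0.16, limma adjusted p = 4.69e-04) and its receptor gene PlexA by 0.61 (SE 0.18, 0.0339), while the glypican gene dlp fell by 0.72 (SE 0.20, 0.0228). PlexA lost its call when any 1 of 6 libraries was left out (limma adjusted p up to 0.13), and dlp without replicate 2 at 24 h (0.154) or replicate 2 at 30 min (0.0641). From 30 min to 24 h of JH3, 2 of the 14 rose and 0 fell, beside 1.74% of all genes called. Both were semaphorin genes other than Sema1a, with 1.06 (SE 0.26, limma adjusted p = 0.0278) and 0.83 (SE 0.21, 0.0329). How far these calls rest on single libraries is not given here. Between the cultures at 30 min 3 were higher and 1 lower in 20E cultures given JH3, beside 19.7% of all genes called. There dlp had -1.72 (SE 0.21, limma adjusted p = 8.25e-07), sli 1.00 (SE 0.22, 0.00159), Sema1a 0.79 (SE 0.17, 0.00107) and the ligand gene Ephrin 1.24 (SE 0.30, 0.00441), the last lost without replicate 2 at 30 min of JH3 (0.0977).

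Genes that act with Dscam1 inside the cell in Drosophila, 7 tested, showed small changes. From 30 min to 24 h of 20E 2 rose and 0 fell, beside 5.82% of all genes called. The sorting nexin gene SH3PX1 rose by 0.34 (SE 0.09, limma adjusted p = 0.0185) and the kinase gene Pak by 0.36 (SE 0.11, 0.0467). The SH3PX1 call was lost without replicate 2 at 24 h (limma adjusted p = 0.0986) or replicate 3 at 30 min (0.0544), and that of Pak when any 1 of 7 libraries was left out (up to 0.186). Between the cultures at 30 min 3 were higher and 2 lower in 20E cultures given JH3, beside 19.7% of all genes called. The actin regulator gene ena had 0.73 (SE 0.17, limma adjusted p = 0.00362), Pak 0.47 (SE 0.12, 0.00461), the adaptor gene dock 0.56 (SE 0.14, 0.00602) and the guanine nucleotide exchange factor gene trio -0.74 (SE 0.23, 0.0233). Without replicate 2 at 30 min of JH3 the calls of Pak (limma adjusted p = 0.0812), dock (0.0531) and trio (0.272) were lost, and that of trio also without replicate 2 at 30 min of 20E (0.0781).

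Fits within runs left fewer of these calls. From 30 min to 24 h of 20E, runs B and C alone kept Nrt, ed, sli and Sema1a (limma adjusted p between 8.66e-05 and 0.0149) and lost mwh, fz2, PlexA, dlp, SH3PX1 and Pak (between 0.0706 and 0.254). Between the cultures at 30 min none of the genes named from the lists was called within run A, where 1 library stands for the 20E cultures given JH3, and ena (limma adjusted p = 0.065) and trio (0.071) were lost within runs B and C. With only the compared groups in the fit, ena, Pak, dock and trio lost the call between the cultures at 30 min, and SH3PX1, Pak, PlexA and mwh that between 24 h and 30 min of 20E.

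By Pearson correlation of log2(FPKM + 1) over the 35 libraries, the named genes most like Dscam2 were E23 (0.936), an ecdysone-induced ABC transporter gene in Drosophila, tmod (0.925), which caps actin filaments, sli (0.921), the nuclear receptor gene Hr3 (0.912) and NLG-4 (0.91), a neuroligin. E23 averaged 5.05 FPKM in the JH3 baseline and 7.42, 9.17 and 72.6 FPKM after 30 min, 6 h and 24 h of 20E. Among the most opposite were bigmax (-0.892) and Dhpr (-0.884). For stan the most alike were the septin gene pnut (0.942), sick (0.927), spg (0.896), ena (0.887) and sfl (0.886), a heparan sulfate modifying enzyme, and the most opposite Pink1 (-0.849), Vps29 (-0.824) and Prp18 (-0.822). These lists did not share a gene, although Dscam2 and stan had a correlation of 0.841 with each other, at which stan ranked 64 of all genes for Dscam2 and Dscam2 39 for stan. The libraries share groups and depth scaling, so these values describe likeness over this design. With group means taken out, the correlation was 0.673 for E23 with Dscam2 and 0.939 for sick with stan.

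Within groups the 2 genes still varied together, and both followed a property of the whole library. That property was the length trend, a slope on gene length in log2 units per doubling of length. For each library it was fitted over the tested genes to each gene's deviation from its own mean over the 35 libraries. Its values are thus relative to the average library. Deviations from the group means of Dscam2 and stan had Pearson r = 0.618 over 35 libraries (permutation p = 1e-04, also after adjustment, Spearman rho = 0.694, permutation p = 3e-05). Without the 2 libraries farthest from the median r was 0.577. It was 0.508 among libraries of run A, 0.68 in run B and 0.683 in run C. The length trend had r = 0.722 with Dscam2 (rho = 0.676, permutation p = 3e-05) and r = 0.694 with stan (rho = 0.767, permutation p = 1e-05). Both r had a permutation p of 1e-05, the smallest that 100000 permutations can give, and 1.5e-05 after adjustment over 3 relations. The trend was computed with these 2 long genes among its genes, so a positive r is partly built in for them. The permutations do not allow for that, and whether other genes of like length follow the trend less was not tested. Without the 2 farthest libraries r was 0.641 for Dscam2 and 0.651 for stan, and within runs it lay between 0.471 and 0.821. The mean trend was 0.0434 at 24 h of 20E and 0.0201 at 30 min. It was -0.0542 in 20E cultures given JH3 for 30 min. The libraries ran from -0.152 to -0.0044 there and from -0.0423 to 0.0950 in JH3 cultures given 20E for 30 min, so the ranges overlapped. Whether the trend differed between groups was not tested.

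**Figure D5:**
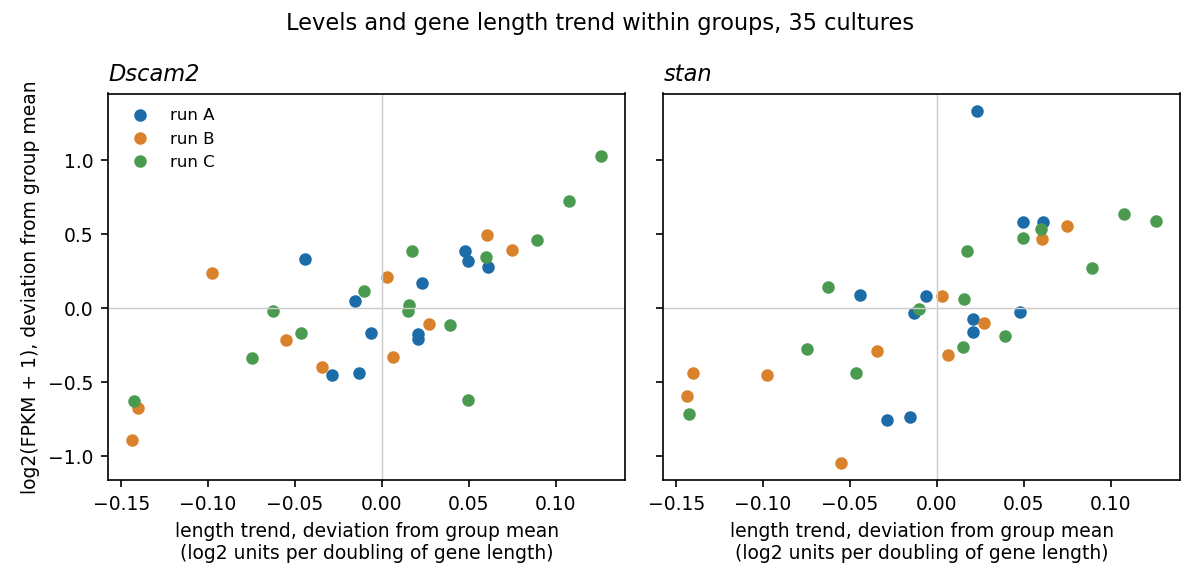
Deviation of each library's Dscam2 (left) and stan (right) log2(FPKM + 1) from its group mean against the deviation of its length trend, in log2 units per doubling of gene length, for 35 cultures coloured by sequencing run. Libraries with a higher length trend than their group tend to hold more of both genes (Pearson r = 0.722 for Dscam2 and 0.694 for stan).

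With that trend as a covariate, the rise from 30 min to 24 h of 20E was 2.29 for Dscam2 (limma adjusted p = 3.13e-08) and 1.64 for stan (1.65e-04), and the difference between the cultures at 30 min 1.75 (5.84e-06) and 1.95 (2.81e-05). The test of the difference between the changes of hormone then passed for both, at 1.91 for Dscam2 (limma adjusted p = 8.44e-04) and 1.92 for stan (0.00595), and so did the step of stan from 30 min to 6 h of 20E, at 1.28 (0.00348). The covariate was computed from the same expression values, with these 2 genes among them. It can therefore take up part of their own spread. The p-values of every fit with this covariate do not allow for that.

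Markers of other cells moved with some of these comparisons. The summed level of 8 glial markers was 145 to 243 FPKM in 20E cultures given JH3 for 30 min and 282 to 343 FPKM in JH3 cultures given 20E for 30 min, and that of 13 neuron markers 745 to 963 FPKM and 1075 to 1621 FPKM. Both sums were lower where Dscam2 and stan were higher. The highest of the glial markers in every library was Eaat2, a glutamate transporter gene, at 80.4 ± 3.18 FPKM in 20E cultures given JH3 for 30 min (SD, n = 3) and 219 ± 11.4 FPKM in JH3 cultures given 20E for 30 min (SD, n = 5). It was lower by a log2 fold change of -1.45 (limma adjusted p = 3.42e-07), while axo was higher by 1.10 (0.0169), the other 6 glial markers were not called and the median over the 8 was 0.07. Of the 13 neuron markers 0 were higher and 5 lower. In that comparison 19.7% of all genes were called. At 6 h the glial sum was 158 to 183 FPKM in 20E cultures given JH3 and 232 to 345 FPKM in JH3 cultures given 20E, and the neuron sum 916 to 1114 FPKM and 1082 to 1553 FPKM. Of the glial markers Eaat2, drpr and Gs2 were lower there and 0 higher, and of the neuron markers 5 were lower and 0 higher. The share of all genes called at 6 h was 19.5%. In JH3 cultures the glial sum was 197 to 215 FPKM at 24 h of 20E, below the 282 to 343 FPKM at 30 min, while the neuron sums overlapped at 1253 to 1509 and 1075 to 1621 FPKM. Over that interval Eaat2 was the one glial marker of 8 called, with a log2 fold change of -0.97 (limma adjusted p = 1.09e-04), and Shal the one neuron marker of 13, with -1.18 (3.73e-04). Both counts stand beside 5.82% of all genes called. The 9 muscle markers summed to 46.1 to 79.0 FPKM over the JH3 cultures given 20E and the 8 hemocyte markers to 45.7 to 195 FPKM. Muscle sums overlapped narrowly, at 46.1 to 68.5 FPKM at 30 min and 67.4 to 79.0 FPKM at 24 h. Of 8 muscle markers tested, Tm1 alone was called over that interval, higher by 0.46 (limma adjusted p = 0.0439), beside 5.82% of all genes. Between the cultures Mp20 alone was called, lower by a log2 fold change of -2.16 at 30 min, -2.39 at 6 h and -2.41 at 24 h (limma adjusted p = 7.15e-05, 1.53e-06 and 3.00e-04). The shares of all genes called there were 19.7%, 19.5% and 4.61%. The hemocyte sums overlapped too. Mhc, which defines muscle, was at 1.49 to 7.57 FPKM and Hml, which defines hemocytes, at 1.43 to 4.20 FPKM over all libraries. The part of these shifts in the results on Dscam2 and stan was not tested.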

How the data were processed

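One table of FPKM values, with a column for each of the 35 libraries, is what the authors deposited. Libraries were made from polyadenylated RNA by a strand-specific dUTP method, per the labels' protocols, and bcl2fastq, STAR, featureCounts and DESeq2 are named without versions in the submitters' processing notes. The build and the annotation used for mapping: not given in the sources used here. Names of genes were looked up by gene number in RefSeq's table for assembly Hsal_v8.6, in which 13989 of 14001 identifiers matched and 4116 had a symbol.

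Whole reads and gene lengths were recovered from the spacing of FPKM values for 13163 genes, including all 9873 tested. Of the nonzero values 100.0% were within 0.03 of a whole read. Over libraries, 1 read was worth an amount that tracked median-ratio size factors (coefficient of variation 0.241%) more closely than total reads (8.3%). The 63 pairs of replicates in a group differed beyond counting error (chi-square of 7.17 to 177 for each gene). The depth of a median 10844903 reads leaves the spread between libraries as the main error. The parts of cultures, library preparation and run in that spread were not separated.

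Genes at 1 FPKM or more in 3 or more libraries were fitted as log2(FPKM + 1) with limma 3.58.1 in R 4.3.3 (group and run, trended and robust prior), two-sided. On the log2(FPKM + 1) scale the fold change of a low gene is understated, and adjustment for run sets fold changes apart from ratios of means. The fit was tested on simulated data. Groups and replicate numbers came from the sample titles and runs from a code in the sample descriptions. The genes, the lists and the tests were chosen with earlier results of these data known. In each comparison up to 4 called members of a list with the smallest adjusted p are named, with the Dscam family, and for likeness the 5 highest and 3 lowest genes with a symbol, of which 1 is not reported here. The 4 comparisons of neighbouring times and the alternatives for genes named from the lists were added after the values were seen.

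Only in 24 h of JH3 against the 20E baseline did the deviations of all same-numbered pairs correlate above 0.1, with 3 pairs from 0.129 to 0.637. For 6 h of JH3 against that baseline 4 of 5 pairs did. Pairs with unlike numbers were not compared, so whether replicate numbers pair the cultures was not tested. The alternatives tried were a pseudocount of 0.1, no filter, quantile normalization, no run term, fits within runs, only the compared groups, the replicate number as a block, limma's voom on recovered reads, the length trend as a covariate, and leaving out libraries. Protein, promoter and genome sequences were not used here.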

Additional observations from a re-analysis of the deposited data

How the results depend on the processing

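Alternatives other than leaving out 1 library were counted over the 16 tested comparisons of each gene, the ratio and the untested contrast of the baselines. Of these, 335 kept direction and side of the threshold, 4 lost a call, 8 gained one and 14 turned the sign of an uncalled value. The 335 include 11 for each gene from the contrast of the baselines. Since that contrast chose the genes, those are no support for the tested results. All adjusted p here are from limma, and the cause of these shifts was not tested. Fits within runs use fewer samples, and in run A the 1 library at 30 min of JH3 is assumed to vary like the other groups. They took Dscam2 between the cultures to 1.15 at 30 min in runs B and C (0.0978) and 1.051 at 6 h in run A (0.127), stan at 30 min to 1.92 in run A (0.414), stan between 30 min of 20E and the JH3 baseline to 0.26 in runs B and C, and stan between 6 h and 30 min of JH3 to 0.20 in run A. Fitting only the compared groups gave stan 1.81 for 24 h of 20E against baseline (0.324), 0.71 for 24 h against 6 h of 20E (0.0422) and -0.19 for 24 h against 30 min of JH3. The Dscam2 difference between the changes of hormone passed with a pseudocount of 0.1 (1.76, 0.0496), quantile normalization (1.84, 0.0274), the replicate number as a block (1.70, 0.0417) and the length trend (1.91, 8.44e-04). With the length trend stan also passed there (1.92, 0.00595) and from 30 min to 6 h of 20E (1.28, 0.00348). The length trend turned stan between the cultures at 24 h (0.024), for 24 h against 30 min of JH3 (-0.28), for 30 min of JH3 against baseline (0.055) and for 24 h against 6 h of JH3 (-0.086), and Dscam2 in the last (-0.073). Dscam1 turned to -0.033 with the length trend and -0.027 with only the compared groups for 24 h against 30 min of 20E, and to -0.019 in runs B and C between the cultures at 30 min. Quantile normalization gave stan -0.022 for 24 h against 30 min of JH3. Without a run term stan between the cultures at 24 h was 0.12, and 24 h of JH3 against baseline was 0.047 for Dscam2 and 0.042 for stan. The replicate block gave stan 0.016 between the cultures at 24 h, and -0.24 (0.871) for Dscam2 and -0.19 (0.925) for stan in 24 h of JH3 against the 20E baseline, and changed no call on either gene but the one above. Without JH3 baseline replicate 4 and JH3 cultures given 20E for 30 min replicate 5, stan was 1.52 at 6 h of 20E against baseline (0.0177) and 0.50 at 30 min.

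Leaving out 1 library at a time, stan between the cultures ran from -0.012 to 0.35 at 6 h and from -0.34 to 0.068 at 24 h, and against the JH3 baseline from -0.48 to 0.30 at 30 min, 0.76 to 1.52 at 6 h and 1.34 to 2.06 at 24 h of 20E. For 24 h against 30 min of JH3 stan ran from -0.12 to 0.37, and for 24 h of JH3 against baseline Dscam2 from -0.29 to 0.27 and stan from -0.40 to 0.052. The difference between the changes of hormone ran from 1.48 to 2.19 for Dscam2 and 1.45 to 2.02 for stan, the step of stan from 30 min to 6 h of 20E from 1.03 to 1.496, that of Dscam2 from 30 min to 6 h of JH3 from -0.027 to 0.65, and the log2 ratio difference at 30 min from -0.49 to 0.40. Counts of called genes moved by over 1.5 times in several fits: between the cultures at 30 min 1946 genes became 63 within run A and 582 with only the compared groups, at 6 h 1924 became 97 and 1198 within the sets of runs, and for 24 h against 30 min of 20E 575 became 348 within runs B and C and 979 with the length trend. Called adhesion genes in the last were 8, against 13 with the length trend (979 of all genes) and 4 within runs B and C (348 of all genes). Between the cultures at 30 min they were 12, against 29 and 7 in the same fits. The counts over all genes are not given for those fits at 30 min, so 29 and 7 are no result on adhesion genes. Leaving out 1 library, called genes ran from 985 to 1983 between the cultures at 30 min, 219 to 376 at 24 h (455 with all), 42 to 387 for 24 h against 30 min of JH3, 0 to 129 for 30 min of JH3 against baseline, 163 to 257 for 24 h against 6 h of 20E (277 with all) and 233 to 469 for the difference between the changes of hormone (387 with all). The lowest of 985 came without replicate 2 and the highest of 387 and 129 without replicate 1 at 30 min of JH3.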
